A study of Rattus norvegicus with 15 samples.

Results

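Cardiomyocytes isolated from adult rat hearts (aCM) were compared with cultured rat cardiac stem cells (CSC) across all genes, aCM minus CSC, with 3 libraries in each group. These are 6 of the 15 libraries of the series, chosen by their labels alone. All cells came from Wistar rats. The aCM libraries were made from myocytes freshly isolated from hearts of animals aged 12 weeks, and the CSC libraries from 3 cultures of 1 undifferentiated clone, so the CSC group holds the spread between cultures and not between clones. No label names a genetic change, a drug or another agent for either group. Cardiomyocytes from hearts at postnatal days 1 to 2 (nCM, 3 libraries) and 3 further stem cell clones (cCSC1, cCSC2 and cCSC3, 1 library each) served as reference points. Library totals were 35.4 to 48.5 M counts in CSC and 20.7 to 26.0 M in aCM. A library with 0 counts of a gene allows up to 3, which is 0.0640 to 0.0887 CPM (counts divided by the scaled library total in M) in CSC and 0.134 to 0.166 CPM in aCM and covers counting error only. The 10 most abundant genes took 14.3 to 17.3% of the counts in aCM and 6.10 to 6.47% in CSC.

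An adult cardiomyocyte is a muscle cell that has left the cell cycle. It contracts through sarcomeres, is driven by calcium released from the sarcoplasmic reticulum, and makes most of its ATP in mitochondria from fatty acids. A cell in culture that divides must instead copy its DNA, build ribosomes and make nucleotides, serine-derived one-carbon units and membrane lipids. The comparison asks how far the stem cell transcriptome lies from that of the adult heart muscle cell.

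Of 17242 genes tested, 13445 (78%) passed an adjusted p of 0.05 in edgeR's quasi-likelihood test, 7449 (43.2%) higher and 5996 (34.8%) lower in aCM. With so wide a difference a call says little by itself, so counts at a 4-fold change or more are given beside it: 5205 genes (30.2%) met that as well, 3548 (20.6%) higher and 1657 (9.61%) lower. The values of the 3 libraries did not overlap between the groups for 13513 genes (78.4%). The median log2 fold change over all tested genes was 0.29, and it shifted by -0.15 with DESeq2's size factors and by -0.18 with total counts in place of TMM scaling. Levels are TMM-scaled CPM, not scaled for gene length, so they are compared between libraries and not between genes, and log2 fold changes are given ± SE. The p-values measure the spread between these libraries, which for aCM are not tied to separate animals by the labels.

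The labels were checked against marker genes first. Myh6, the alpha myosin heavy chain that is the main motor of the adult rat ventricle, stood at 83459.5, 72677 and 59360.3 CPM in the aCM libraries and at 28.8, 2.97 and 0.296 CPM in CSC. Kit, the receptor tyrosine kinase by which cardiac stem cells are commonly selected, had 14, 22 and 14 counts in the CSC libraries, or 0.335, 0.469 and 0.414 CPM, against 33.0, 26.7 and 40.4 CPM in aCM (log2 fold change 6.34 ± 0.22, adjusted p = 1.98e-11). Kit was thus low in all 3 stem cell cultures, and the clones cCSC1, cCSC2 and cCSC3 held 0.388, 0.505 and 0.335 CPM of their column totals. Of 15 progenitor and stem cell surface genes, 11 were higher and 3 lower in aCM, beside 43.2% and 34.8% of all tested genes. Cd34, a surface sialomucin of vessels and progenitors, stood at 0.0479, 0.341 and 0.118 CPM in CSC and at 54.5, 39.4 and 79.1 in aCM. Abcb1a, a drug efflux pump, was among those lower in aCM, at 16.6, 13.7 and 22.2 CPM against 223, 163 and 87.5 in CSC (-3.18 ± 0.30), and the growth factor receptor Pdgfra did not pass (-0.20 ± 0.20, adjusted p = 0.365; it passed at -0.45 without aCM replicate 3). None of the 15 was without a count in CSC.

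The CSC libraries also carried unequal amounts of transcripts that are abundant in heart tissue. CSC replicate 1 held the most heart muscle counts, with 1203, 139 and 10 counts of Myh6, 290, 47 and 35 of the calcium release channel Ryr2 and 145, 47 and 6 of myoglobin (Mb) in replicates 1, 2 and 3. CSC replicate 2 held nearly all the globin counts (2, 2234 and 3 for Hba2, 0, 2056 and 0 for Hbb). It was also the highest of the 3 in counts of the endothelial gene Pecam1 (20, 101 and 11) and of the growth factor gene Igf2 (24, 691 and 29). The source of these counts was not tested.  Among 234 genes named by rule, the fold moved by over 1.5 times on leaving out 1 library for 46, of which 27 moved without CSC replicate 2, 19 without CSC replicate 1, 4 without CSC replicate 3 and 6 without an aCM library, and 5 changed their call or sign.

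**Figure D1:**
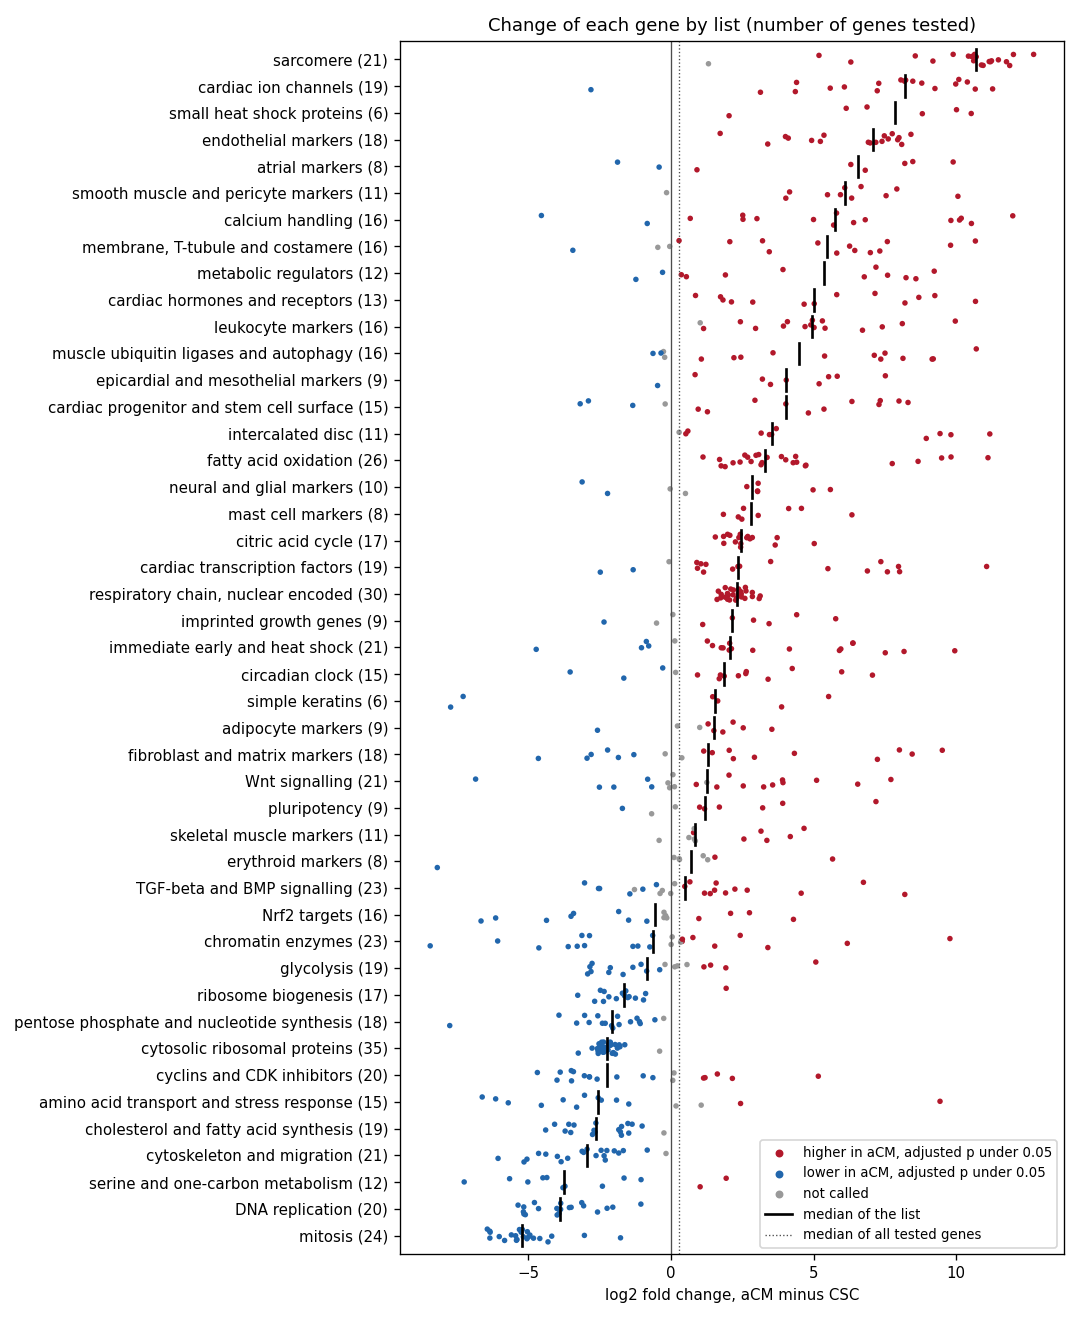
Log2 fold change of every tested gene in each of 45 gene lists, aCM minus CSC, 1 point per gene, coloured by whether it passed (edgeR, adjusted p under 0.05) and with list medians as black bars. The lists run from sarcomere genes, with a median of 10.70, down to mitosis genes, with a median of -5.23, while the median of all tested genes is 0.29.

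Sarcomere genes had the highest median fold change of the 45 lists. Of 21 sarcomere genes, 20 were higher in aCM, all of them by at least 4-fold, with a median log2 fold change of 10.70. Their summed level was 106246 to 136689 CPM in the aCM libraries and 165 to 186 CPM in CSC. Myh6 gave a log2 fold change of 12.71 ± 1.42 (adjusted p = 2.03e-06), and 15.36 without CSC replicate 1. Tnni3, the adult cardiac troponin I, stood at 2868, 3455 and 2866 CPM in aCM against 1.58, 0.725 and 0.0592 in CSC (11.87 ± 0.62, and 12.78 without CSC replicate 1). Myom2, an M-band protein, stood at 5399, 5265 and 4607 CPM against 2.56, 0.533 and 0.592 (12.00 ± 0.61, and 13.13 without CSC replicate 1). Cardiac troponin T, Tnnt2, stood at 4879, 5975 and 5084 CPM against 4.02, 3.20 and 1.12 (10.88 ± 0.52). For each of these 4 genes the lowest aCM library lay far above the highest CSC library. Outside the list, Parm1, which encodes a mucin-like membrane protein, had 1, 4 and 0 counts in the CSC cultures and 201, 107 and 137 CPM in aCM (11.72 ± 0.40, and 13.12 without CSC replicate 2).

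Tnni1, the troponin I that hearts use before birth, was the 1 sarcomere gene that did not pass. It was low in both groups, at 0.777, 1.57 and 0.499 CPM in aCM and 0.144, 0.875 and 0.0592 in CSC (1.32 ± 0.67, adjusted p = 0.0883), while nCM held 163 ± 47.7 CPM (SD, n = 3). Without CSC replicate 2 its log2 fold change was 3.16 and passed, and without aCM replicate 2 it was 0.70. Myh7, the slower beta myosin heavy chain, varied within the adult group, at 1992, 7814 and 2662 CPM, with replicate 2 highest (11.48 ± 0.84 against CSC, 10.63 without aCM replicate 2 and 12.09 without CSC replicate 1).

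Membrane and junction genes followed with more exceptions. In the membrane, T-tubule and costamere list 13 of 16 genes were higher and 1 lower in aCM, beside 43.2% and 34.8% of all tested genes. Cmya5, a costameric protein of striated muscle, stood at 3138, 3736 and 3249 CPM in aCM and 3.06, 1.66 and 1.45 in CSC (10.67 ± 0.38). Bin1, which bends membranes into T-tubules, went the other way, at 8.08, 10.1 and 15.1 CPM in aCM and 114, 106 and 140.0 in CSC (-3.44 ± 0.21). The table gives 1 value per gene, so muscle and ubiquitous forms of Bin1 are not separated. Vinculin (Vcl), which links actin to adhesion sites in many cell types, did not pass (-0.46 ± 0.20, adjusted p = 0.053), but it did with 2 other scalings of the libraries and without CSC replicate 1 (-0.68). In the intercalated disc list 10 of 11 were higher. They included Nrap, at 1206, 1008 and 919 CPM against 0.646, 0.363 and 0.325 (11.18 ± 0.29), and the desmosomal cadherin Dsg2, at 211, 169 and 167 CPM against 0.215, 0.320 and 0.237 (9.43 ± 0.21). The related cadherin Dsc2 did not pass (0.29 ± 0.23, adjusted p = 0.269), and both groups held it, at 51.2, 48.0 and 37.1 CPM in aCM and 21.7, 46.8 and 43.2 in CSC.

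Calcium handling separated the groups in both directions. Of 16 genes 14 were higher and 2 lower in aCM, beside 43.2% and 34.8% of all tested genes. Ryr2, which releases calcium from the sarcoplasmic reticulum, stood at 13622, 12236 and 10617 CPM in aCM against 6.94, 1.00 and 1.04 in CSC (11.98 ± 0.80, and 13.53 without CSC replicate 1). Casq2, which buffers calcium in that store, stood at 1708, 2005 and 1519.5 CPM against 1.51, 1.26 and 0.710 (10.53 ± 0.30). The reuptake pump Atp2a2 differed less, and CSC held 456, 559 and 559.7 CPM, against 30739.5, 27315 and 23946 in aCM (5.70 ± 0.25). Its muscle inhibitor phospholamban, Pln, was near absent from CSC, at 0.909, 1.00 and 0.828 CPM against 902, 1090.1 and 1075 (10.12 ± 0.34). Pump and inhibitor thus both lay above CSC in all 3 adult libraries. Among the genes lower in aCM was Fkbp1b (-4.54 ± 0.54), a ryanodine receptor binding protein whose CSC level was 1.34, 2.15 and 1.36 CPM and whose aCM level, 0.104, 0.0895 and 0 CPM, lay under 3 counts per library.

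Among 19 identifiers of cardiac ion channels 18 were higher in aCM and 1 was lower, beside 43.2% and 34.8% of all tested genes. Kcnip2, the subunit that shapes the fast transient outward current, has 2 identifiers, and the more abundant one stood at 404, 447 and 377 CPM in aCM and 0.455, 0.213 and 0.237 in CSC (10.39 ± 0.29). Abcc9, the sulfonylurea receptor of the ATP-sensitive potassium channel, stood at 763, 760.1 and 746 CPM against 0.790, 0.363 and 0.207 (10.67 ± 0.32, and 11.30 without CSC replicate 1). All 13 hormone and receptor genes measured were higher in aCM. They included the atrial natriuretic peptide gene Nppa (1097, 442 and 809.7 CPM against 0.598, 0.576 and 0.207, 10.67 ± 0.48) and Corin, the protease that matures that peptide (476, 353 and 297 CPM against 0.742, 0.512 and 0.592, 9.25 ± 0.34).

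Cardiac transcription factors moved less uniformly. Of 19, 16 were higher in aCM (11 by at least 4-fold), 2 were lower, and the list median was 2.35. Tbx5, a T-box factor of the forming heart, stood at 33.3, 26.5 and 25.2 CPM in aCM and 0.0957, 0.107 and 0.118 in CSC (8.01 ± 0.21). The homeobox factor Nkx2-5 had 0, 6 and 2 counts in the CSC libraries and stood at 9.94, 14.4 and 9.14 CPM in aCM (7.36 ± 0.44, and 8.54 without CSC replicate 2). Gata4 differed far less, and CSC held 14.9, 15.9 and 25.1 CPM, against 87.5, 86.4 and 76.3 in aCM (2.16 ± 0.17). The stem cells thus carried Gata4 transcripts clearly and Nkx2-5 and Tbx5 transcripts at or near the detection limit. Isl1, a factor of second heart field progenitors, was lower in aCM and low throughout (1.41, 1.39 and 2.31 CPM in CSC and 0.259, 0.313 and 0.332 in aCM, -2.47 ± 0.40). Meis1, a homeobox factor that in mouse restrains myocyte division, was also lower (51.8, 61.2 and 103 CPM in CSC and 30.8, 28.9 and 26.8 in aCM, -1.32 ± 0.20), and Tbx3 did not pass (-0.07 ± 0.15, adjusted p = 0.699).

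**Figure D2:**
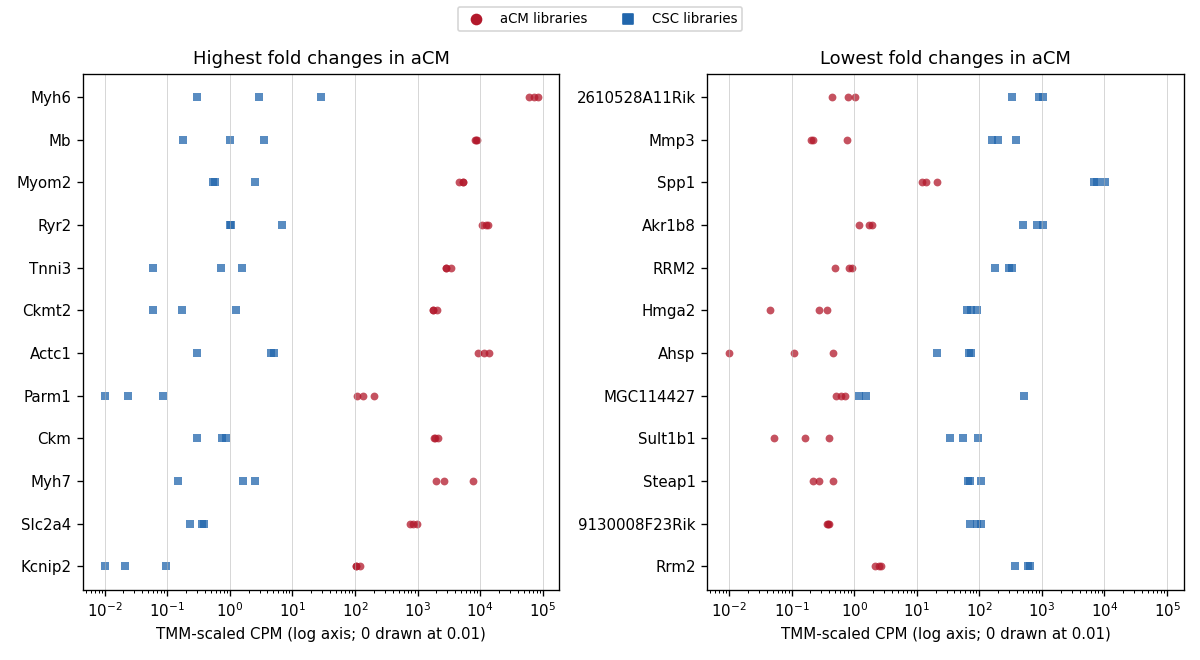
TMM-scaled CPM in each of the 3 aCM libraries (circles) and 3 CSC libraries (squares), on a log axis, for the 12 named genes with the largest positive and the 12 with the largest negative log2 fold change. The CSC values of Myh6 run from 0.296 to 28.8 CPM, and MGC114427 is high in only 1 CSC library, at 524 CPM.

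Energy metabolism was higher in aCM without exception in 3 lists. All 26 genes of fatty acid uptake and oxidation were higher in aCM, 22 of them by at least 4-fold, with a median of 3.28. All 30 identifiers of the nuclear-encoded respiratory chain were higher too, within a narrow band from 1.62 to 3.13, and all 17 genes of the citric acid cycle, with a median of 2.44. The background for a higher call is 43.2%, and for one of at least 4-fold 20.6%. Lpl, the lipase that frees fatty acids from lipoproteins, stood at 6048, 5378 and 5745 CPM in aCM and 4.21, 1.58 and 1.95 in CSC (11.11 ± 0.41). Fabp3, the muscle fatty acid carrier, stood at 1654, 1663 and 1893 CPM against 2.63, 1.79 and 1.30 (9.82 ± 0.42). Both were taken as the most changed of their list. In the respiratory chain the most changed included the succinate dehydrogenase subunit Sdha, which gave 3.13 ± 0.18 (1291, 1510.2 and 1423 CPM against 157, 163 and 163) and the complex I subunit Ndufs1, which gave 3.09 ± 0.18 (1276, 1615 and 1432 CPM against 154, 166 and 186). In the citric acid cycle Ogdh stood out, at 1671, 1714 and 1379 CPM against 51.5, 52.0 and 43.0 (5.02 ± 0.22).

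Of 12 regulators of metabolism 10 were higher and 2 lower in aCM, with a median of 5.35. The PGC-1 coactivators, which drive mitochondrial genes, were both near the detection limit in CSC, with Ppargc1a at 0.144, 0.341 and 0.384 CPM against 114, 122 and 97.6 in aCM (8.59 ± 0.28) and Ppargc1b at 0.120, 0.171 and 0.0887 CPM against 89.7, 83.0 and 67.3 (9.23 ± 0.23). The lower ones were Nrf1 and Tfam. Nrf1, a nuclear respiratory factor, was lower in every aCM library (13.9, 15.2 and 20.1 CPM against 34.1, 37.5 and 43.4 in CSC, -1.23 ± 0.14). Tfam, the transcription factor of mitochondrial DNA, was lower by little (-0.29 ± 0.11, adjusted p = 0.0307), and its call was lost without aCM replicate 1 (-0.23), without CSC replicate 2 (-0.29), with all libraries thinned to the smallest total (-0.19) and with the stricter filter on low counts (-0.16).

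Glycolysis genes went in both directions, more often lower in aCM. Of 19 identifiers 4 were higher, 11 lower and 4 did not pass, beside 43.2% higher and 34.8% lower of all tested genes. By at least 4-fold 1 was higher and 6 were lower, beside 20.6% and 9.61%. The list median was -0.85, and the summed level was 10613 to 12104 CPM in aCM and 18967 to 22937 CPM in CSC. The glucose transporter Slc2a1, used by most dividing cells, stood at 41.7, 56.7 and 31.7 CPM in aCM and 275, 350.2 and 283 in CSC (-2.80 ± 0.18). The insulin-responsive transporter of muscle and fat, Slc2a4, was the reverse, at 997, 846 and 758 CPM against 0.383, 0.235 and 0.355 (11.39 ± 0.27). Pfkm, the muscle phosphofructokinase, stood at 852, 1059.7 and 839 CPM against 35.7, 28.6 and 17.0 (5.08 ± 0.25), whereas the enolase Eno1 was lower in aCM (448, 483 and 403 CPM against 3171, 3573 and 3339.9, -2.92 ± 0.20). Gapdh, often used as a reference gene, did not pass (-0.21 ± 0.17, adjusted p = 0.277), but passed as lower in aCM with total counts in place of TMM (-0.38). The lactate and pyruvate carrier Slc16a1 was higher in aCM (1.39 ± 0.13).

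Related genes often differed in unlike ways. For 48 pairs of a gene favoured in muscle and a relative, chosen with earlier results of these data known and so no independent sample of gene families, the log2 ratio of their counts was taken within each library, which does not depend on how libraries are scaled. In 45 pairs both genes were tested. The ratio was higher in every aCM library than in every CSC library for 40, lower for 3 and overlapping for 2, with a median difference of 8.28 on the log2 scale. Each of the 45 kept the sign of its difference with a pseudocount of 1 in place of 0.5 and on leaving out each of the 6 libraries, but for 16 the size moved by over 1.5 times without a CSC library. In 23 pairs the muscle gene was higher and its relative lower in aCM, in 13 both were higher, and in 1, the lamins Lmna and Lmnb1, both were lower. In the other 8 a gene of the pair did not pass. No gene lengths enter these ratios, so only their change between groups is read.

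In the cytoskeleton, the log2 ratio of cardiac actin Actc1 to cytoplasmic actin Actb was 3.80, 4.12 and 3.19 in the aCM libraries and -9.36, -9.87 and -14.10 in CSC, a difference of 14.81 (15.69, 15.43 and 13.32 without CSC replicate 1, 2 or 3). Both genes contributed, Actc1 with 11.76 ± 0.84 and Actb with -2.30 ± 0.22. Desmin to vimentin (Des to Vim), the muscle and mesenchymal intermediate filaments, went from -9.90, -8.94 and -10.58 in CSC to 2.50, 2.70 and 1.79 in aCM. The translation machinery showed pairs of the same kind. Eef1a2, the elongation factor 1 alpha of muscle and neurons, relative to the general Eef1a1 gave -14.61, -15.06 and -15.34 in CSC and -1.07, -0.91 and -1.82 in aCM, a difference of 13.74. Rpl3l, a muscle form of ribosomal protein L3, relative to Rpl3 gave -12.05, -14.59 and -15.32 in CSC and -0.20, 0.17 and -0.98 in aCM, a difference of 13.65 (14.62 without CSC replicate 1 and 12.98 without CSC replicate 3). Rpl3l and Rpl3 changed in opposite directions, by 9.63 ± 0.47 and -3.25 ± 0.20.

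In metabolism, the glucose transporter ratio Slc2a4 to Slc2a1 differed by 14.18 between the group means, the phosphoglycerate mutases Pgam2 to Pgam1 by 10.39, the lactate dehydrogenases Ldhb to Ldha by 10.37 and the acetyl-CoA carboxylases Acacb to Acaca by 11.53. Ldhb to Ldha spread widely among the CSC libraries, at -8.27, -12.01 and -7.42, and narrowly in aCM, at 1.25, 1.14 and 1.01, so its difference was 8.98 without CSC replicate 2 and 11.28 without CSC replicate 3. The cytochrome oxidase subunit Cox8b was higher in aCM (11.06 ± 0.40), whereas its ubiquitous relative Cox8a did not pass (-0.10 ± 0.20, adjusted p = 0.665). At the nucleus, the polycomb methyltransferases differed on a smaller scale, with Ezh1 to Ezh2 at -0.84, -1.45 and -1.70 in CSC and 2.75, 2.80 and 2.63 in aCM (Ezh1 0.77 ± 0.13, Ezh2 -3.28 ± 0.14). The 3 pairs whose ratio was lower in aCM were the hexokinases Hk1 to Hk2, the glycogen synthases Gys1 to Gys2 and the monocarboxylate transporters Slc16a1 to Slc16a3, each by less than 1 on the log2 scale (-0.94, -0.81 and -0.58). The 2 overlapping pairs were the myosin heavy chains Myh6 to Myh7 and the coactivators Ppargc1a to Ppargc1b.

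**Figure D3:**
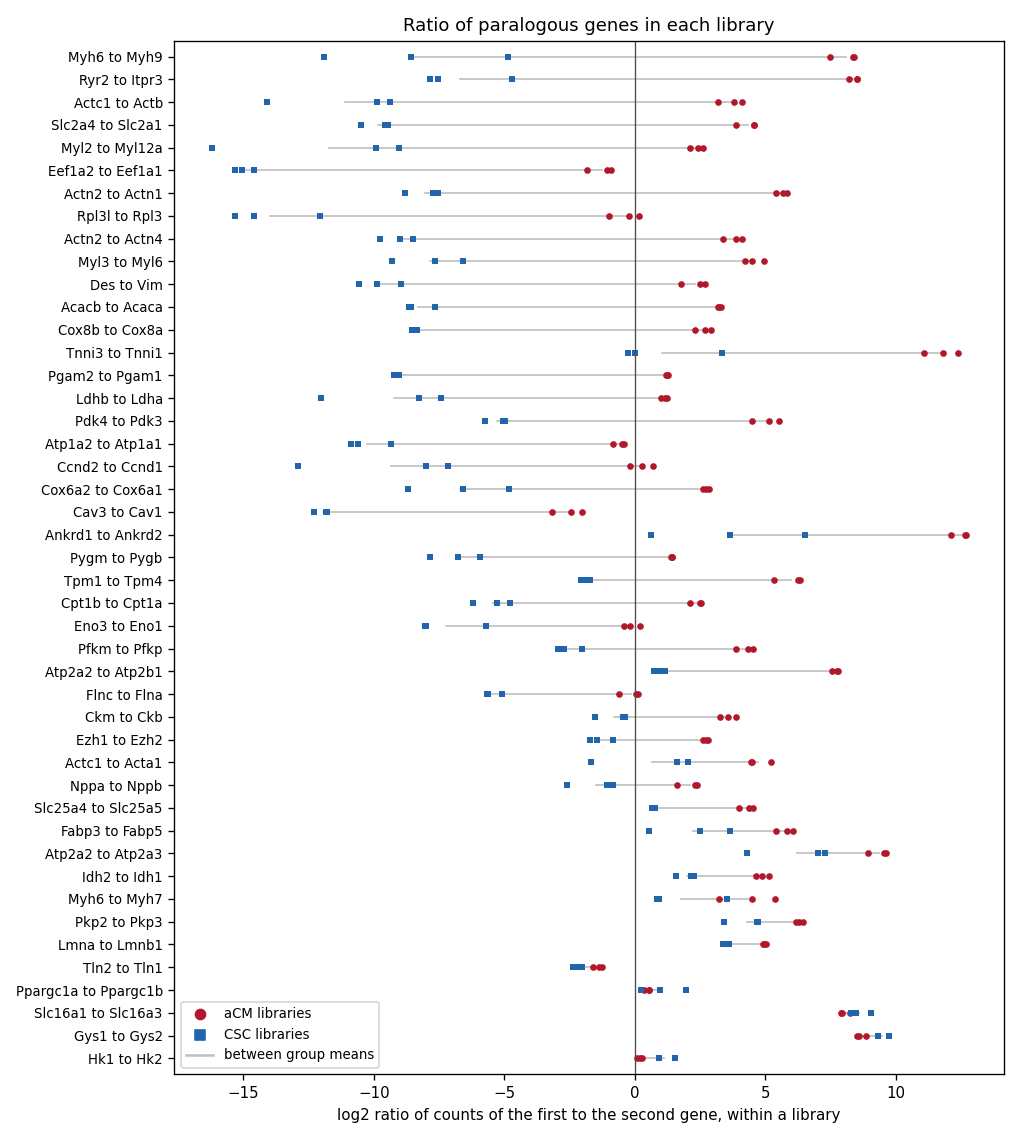
Log2 ratio of the counts of 2 related genes within each library, with circles for the 3 aCM libraries, squares for the 3 CSC libraries and a line between the group means, for the 45 pairs in which both genes were tested. The ratio lies higher in every aCM library for 40 pairs, and the 3 rows at the foot are the pairs for which it lies lower.

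The genes of cell division were lower in aCM without exception among those listed. All 24 mitosis genes and all 20 DNA replication genes measured were lower in aCM, 23 and 19 of them by at least 4-fold, against backgrounds of 34.8% and 9.61%. Their medians were -5.23 and -3.89. The summed level of the mitosis list was 174 to 240.1 CPM in aCM and 4514 to 6649.6 CPM in CSC. Cdk1, the kinase that starts mitosis, stood at 2.49, 2.33 and 3.88 CPM in aCM and 194, 279.8 and 273 in CSC (-6.44 ± 0.25). Its partner cyclin B1 (Ccnb1) stood at 2.80, 1.70 and 2.94 CPM against 162, 189.6 and 247 (-6.34 ± 0.23), and the proliferation marker Mki67 at 35.9, 21.2 and 38.4 CPM against 1012, 1518 and 1534 (-5.41 ± 0.26). Mki67 counts were thus well above the detection limit in all 3 adult libraries, and which cells of the isolate they came from was not tested. Mcm5, a subunit of the replicative helicase, stood at 7.97, 5.60 and 7.70 CPM against 181, 258 and 318 (-5.16 ± 0.22).

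Promoters of the mitosis genes are shown because these genes differed together. Mitotic promoters are known to use the factor NF-Y, which binds CCAAT boxes, and the DREAM and MuvB complexes, which bind the element TTTGAA. Promoter windows, from 250 bases before to 50 bases after the gene start, were taken from RefSeq on the build GRCr8 and matched by symbol for 19 of the 24 mitosis genes. The motifs were chosen after the values were seen and searched on both strands. A CCAAT match can share an end base with a TTTGAA match, which does not occur in the windows printed here. CCAAT was in 15 of the 19 windows (37.7% of all 27457 windows), TTTGAA in 13 (18.1%) and both in 11 (7.25%). In 17 windows of DNA replication genes CCAAT was in 11 and TTTGAA in 1, while the E2F motif TTTCCCGC was in 3 (1.03% of all windows), those of Mcm3, Mcm5 and Mcm7. The windows of 3 mitosis genes follow, 5′ to 3′ along the gene, with both motifs in capitals.
Ccnb1, chr2:33655176-33655475, minus strand: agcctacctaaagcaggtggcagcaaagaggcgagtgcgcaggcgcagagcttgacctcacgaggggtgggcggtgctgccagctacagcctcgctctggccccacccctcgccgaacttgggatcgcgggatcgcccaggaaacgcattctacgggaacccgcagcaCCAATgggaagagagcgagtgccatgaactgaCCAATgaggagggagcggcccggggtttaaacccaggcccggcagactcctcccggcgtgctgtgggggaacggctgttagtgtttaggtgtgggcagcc
Ccnb2, chr8:79981609-79981908, minus strand: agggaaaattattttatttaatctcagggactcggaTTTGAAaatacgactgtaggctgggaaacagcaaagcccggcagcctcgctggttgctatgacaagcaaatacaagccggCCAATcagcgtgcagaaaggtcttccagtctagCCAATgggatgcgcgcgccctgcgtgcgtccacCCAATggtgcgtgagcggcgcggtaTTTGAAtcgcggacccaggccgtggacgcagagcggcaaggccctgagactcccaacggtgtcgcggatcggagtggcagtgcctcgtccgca
Cdk1, chr20:19265043-19265342, plus strand: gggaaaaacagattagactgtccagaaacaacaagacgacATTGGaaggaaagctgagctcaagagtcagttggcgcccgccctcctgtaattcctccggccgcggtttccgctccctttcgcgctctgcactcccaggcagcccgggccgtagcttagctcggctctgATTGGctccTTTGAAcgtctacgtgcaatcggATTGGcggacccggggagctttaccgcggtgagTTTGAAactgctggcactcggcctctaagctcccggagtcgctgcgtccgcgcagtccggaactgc
Ccnb2 holds 3 CCAAT boxes, starting at -134, -101 and -68 from the gene start, and TTTGAA at -214 and -43. Cdk1 holds 3 CCAAT boxes on the other strand, printed as ATTGG, at -210, -81 and -49, and TTTGAA at -72 and -16. Ccnb1 holds CCAAT at -82 and -50 and no TTTGAA in this window. Ccnb2 encodes cyclin B2 and stood at 1.66, 1.52 and 1.83 CPM in aCM and 42.8, 56.6 and 59.3 in CSC (-4.99 ± 0.16). It, Mcm3 and Mcm7 are named for their promoters, after their values were seen. A match is a description of letters and not evidence of binding.

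Other motifs gave few matches. TGATGCAA, bound by ATF4 with C/EBP factors, was in 2 of 14 windows of amino acid transport and stress genes and in 1 of 9 of serine and one-carbon genes (0.743% of all). A sterol-response element was in 0 of 12 cholesterol and fatty acid synthesis windows (0.102%). The estrogen-related receptor motif AAGGTCA was in 1 of 21 respiratory chain and 1 of 21 fatty acid oxidation windows (4.37%), and the MEF2 motif CTAAAAATA in 0 of 16 sarcomere windows (0.517%).

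Cyclins and cell cycle inhibitors split. Of 20 tested 13 were lower and 5 higher in aCM, beside 34.8% and 43.2% of all tested genes. Cyclin D1 (Ccnd1), which moves cells through G1, stood at 102, 84.7 and 140.2 CPM in aCM and 867, 1404 and 1219 in CSC (-3.42 ± 0.24). Cyclin D2 (Ccnd2) was the reverse, at 125, 139 and 124 CPM against 6.01, 0.171 and 4.79 (5.17 ± 0.64, 5.78 without CSC replicate 1 and 4.57 without CSC replicate 2). Cyclin D3 (Ccnd3) did not pass (0.06 ± 0.12, adjusted p = 0.627), with a sign that changed with the scaling. The transcription factor E2f1, which turns on replication genes, was lower in aCM (3.42, 2.87 and 2.49 CPM against 61.6, 83.9 and 79.97, -4.68 ± 0.18).

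Chromatin genes also divided, 12 lower and 8 higher of 23, beside 34.8% and 43.2% of all tested genes. Hmga2, an architectural protein of embryonic and transformed cells, stood at 0.362, 0.0448 and 0.277 CPM in aCM and 63.7, 74.0 and 93.2 in CSC (-8.44 ± 0.36). Uhrf1, which carries DNA methylation through replication, stood at 5.02, 3.94 and 4.04 CPM against 211, 307 and 357 (-6.07 ± 0.21). In the other direction lay Smyd1, a muscle methyltransferase (297, 379.9 and 273 CPM against 0.311, 0.448 and 0.296, 9.78 ± 0.27), the DNA demethylase Tet1 (46.4, 46.6 and 42.9 CPM against 0.550, 0.640 and 0.680, 6.18 ± 0.17) and the de novo methyltransferase Dnmt3a (51.5, 56.5 and 54.4 CPM against 3.68, 5.93 and 5.80, 3.40 ± 0.16).

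Biosynthesis was lower in aCM almost throughout. Of 35 identifiers of cytosolic ribosomal proteins 34 were lower, with a median of -2.23 and a summed level of 5072 to 7221 CPM against 27621 to 33198 CPM. The 1 that did not pass was a second, sparsely counted identifier of Rpl32. Ribosomal protein genes have many near-identical copies, so reads could be split among them. In ribosome biogenesis 16 of 17 were lower, led by nucleophosmin, Npm1 (104, 123 and 159 CPM against 1321, 1250.3 and 1148, -3.27 ± 0.22), and only Nolc1, a nucleolar phosphoprotein, was higher (1104, 1218 and 1274 CPM against 283, 306 and 350.3, 1.94 ± 0.15). Of 18 pentose phosphate and nucleotide genes 17 were lower. Rrm2, the ribonucleotide reductase subunit that supplies DNA precursors, stood at 2.17, 2.51 and 2.71 CPM against 367, 635 and 592 (-7.75 ± 0.27). A separate identifier with the symbol RRM2 gave -8.50 ± 0.33, and reads may be shared between the copies. Of 19 genes of cholesterol and fatty acid synthesis 18 were lower, among them the sterol oxidase Msmo1 (-4.39 ± 0.20) and fatty acid synthase, Fasn (52.9, 70.5 and 62.3 CPM against 624, 849 and 954, -3.71 ± 0.18).

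Of the metabolic lists, serine and one-carbon metabolism had the lowest median. Of 12 serine and one-carbon genes 10 were lower, with a median of -3.75. Psat1, an aminotransferase of serine synthesis, stood at 1.29, 0.895 and 2.16 CPM in aCM and 170.4, 226 and 253 in CSC (-7.24 ± 0.26), and Phgdh, the first enzyme of that pathway, at 3.26, 5.46 and 3.21 CPM against 214, 124 and 268 (-5.65 ± 0.31). The exceptions were Mat2a, which makes S-adenosylmethionine (1.02 ± 0.14), and Aldh1l2 (1.94 ± 0.22). In amino acid transport and stress response 11 of 15 were lower. Asns, which makes asparagine, stood at 2.54, 3.00 and 1.94 CPM against 237, 254 and 247 (-6.61 ± 0.18), and the cystine carrier Slc7a11 at 4.76, 4.34 and 3.10 CPM against 275, 298 and 293 (-6.14 ± 0.18). Among neutral amino acid carriers, Slc38a1 was higher in aCM (126, 113 and 105 CPM against 0.191, 0.171 and 0.118, 9.43 ± 0.18), whereas Slc38a2 did not pass (0.18 ± 0.12, adjusted p = 0.196).

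The 12 named genes with the largest negative log2 fold change included secreted and metabolic genes beside Rrm2 and Hmga2. Spp1, the secreted phosphoprotein osteopontin, stood at 6736, 10155 and 7557 CPM in the CSC libraries and 12.1, 21.4 and 14.1 in aCM (-9.00 ± 0.49). Mmp3, the matrix protease stromelysin, stood at 387, 157 and 199 CPM against 0.207, 0.761 and 0.222 (-9.21 ± 0.53, and -10.17 without aCM replicate 2). Akr1b8, an aldo-keto reductase, stood at 849, 499.7 and 1047 CPM against 1.19, 1.93 and 1.72 (-8.94 ± 0.31). All 3 were high in every CSC culture. Ahsp, known as the chaperone of alpha globin, stood at 21.3, 69.0 and 74.3 CPM in CSC and 0.466, 0 and 0.111 in aCM (-8.19 ± 0.65, and -10.03 without aCM replicate 1 and -7.55 without aCM replicate 2), although the globin genes themselves were at or near 0 in CSC replicates 1 and 3. MGC114427 met the naming rule but rests on 1 library, with 64, 24539 and 41 counts in the CSC cultures. Its log2 fold change of -8.14 ± 2.03 was -1.16 without CSC replicate 2 and -8.73 and -8.74 without the other two.

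Genes of cytoskeleton and migration were lower in aCM, and keratins divided. Of 21 genes of cytoskeleton and migration 20 were lower in aCM. S100a4, a calcium-binding protein of motile cells, stood at 1763, 2132 and 1995 CPM in CSC and 22.6, 30.5 and 35.3 in aCM (-6.06 ± 0.22), and Anxa2, a membrane-binding annexin, at 3589, 5282 and 4558 CPM against 113, 112 and 182 (-5.05 ± 0.25). The nonmuscle myosin Myh10 did not pass (-0.17 ± 0.15, adjusted p = 0.294). Of 6 keratins of simple epithelia 4 were higher and 2 lower in aCM, beside 43.2% and 34.8% of all tested genes, with a median of 1.55. A CSC mean under 1 CPM was found for 4 of the 6. Their summed level was 25.9 to 39.9 CPM in aCM and 1480 to 2258 CPM in CSC. The lower ones, Krt8 and Krt7, stood at 1336, 1721 and 1914 CPM and 143, 269 and 342 CPM in CSC, against 9.22, 8.95 and 13.8 and 0.621, 1.34 and 1.61 in aCM (-7.28 ± 0.29 and -7.72 ± 0.38). Krt19 was among the higher ones (12.1, 10.9 and 18.6 CPM against 0.335, 0.192 and 0.384, 5.53 ± 0.32). Nrf2 target genes of detoxification were uneven, with 8 of 16 identifiers lower and 4 higher, beside 34.8% and 43.2% of all tested genes. The aldehyde dehydrogenase Aldh3a1 (647, 436 and 789.7 CPM in CSC, 6.20 ± 0.437 in aCM, SD, n = 3, -6.65 ± 0.29) and the quinone reductase Nqo1 (413, 343 and 530.4 CPM in CSC, 21.1, 19.2 and 22.3 in aCM, -4.36 ± 0.19) were far lower in aCM, but 4 of 16 identifiers were higher and 4 did not pass.

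The profile was set beside 3 other stem cell clones, in a separate table with 1 library per clone and no test. That table also holds CSC replicate 1, under the name cCSC4. Spp1 stood at 13043, 7952 and 11884 CPM of the column total in cCSC1, cCSC2 and cCSC3, Mmp3 at 858, 503 and 1245, Krt8 at 1521, 996 and 1646 and Hmga2 at 118, 99.2 and 167. MGC114427 stood at 0.736, 0.418 and 0.297, below all 3 CSC cultures and far below replicate 2. Of the 5996 genes lower in aCM 5825 were matched in the clone table, and 5219 (89.6%) lay above every aCM library in all 3 clones, against 40.8% of all 15400 matched genes. Of the 1657 that were lower by at least 4-fold 1583 were matched, and for 1546 (97.7%) all 3 clones lay above every aCM library. Of the genes higher in aCM 6290 were matched and all 3 clones lay below every aCM library for 4515 (71.8%), against 32.3% of all matched genes, and for 2386 of 2809 (84.9%) at 4-fold or more. These shares are descriptions, since the genes were chosen as different from the same aCM libraries. Some genes set a clone apart from the CSC cultures: cCSC2 held far more than the other two clones of Dcn (1.11, 422 and 0.472 CPM in cCSC1, cCSC2 and cCSC3) and of Dkk3 (0.723, 58.9 and 0.430), and all 3 clones held more Ccnd2 (69.9, 42.9 and 73.7) than any CSC culture. Both deposited tables carry a title of filtered on expression, although the first holds 6399 of 26276 genes with no count in any library. Genes low in the clones may still be missing from the clone table. Matching was by symbol, and symbols that occur repeatedly in the clone table or among the tested genes were left out.

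**Figure D4:**
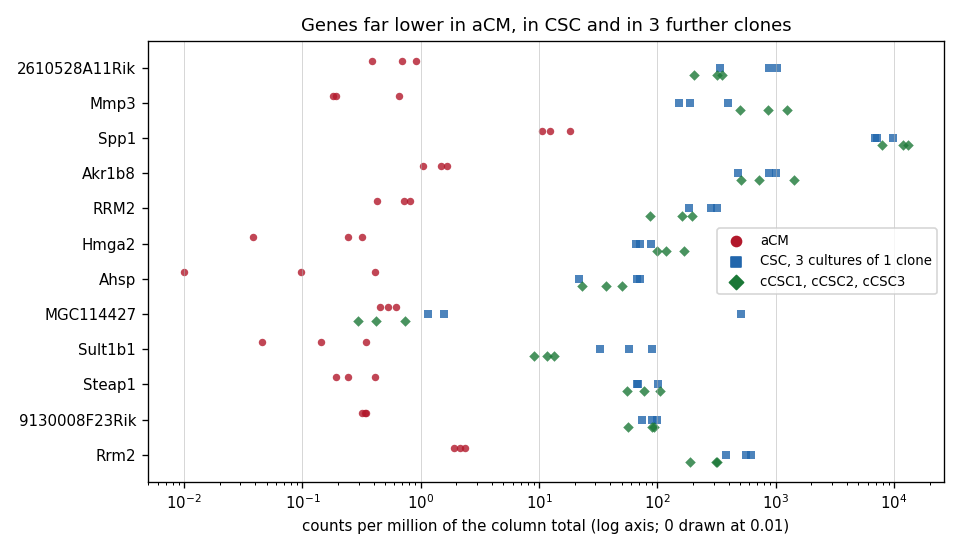
CPM of the column total, on a log axis, for the 12 named genes with the largest negative log2 fold change, in the aCM libraries (circles), the CSC cultures (squares) and 3 further clones (diamonds). All 3 clones lie above every aCM library for 11 of the 12, and for MGC114427 the clones hold 0.736, 0.418 and 0.297.

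The adult libraries were also tested against nCM in the same fit (aCM minus nCM). This was done because the contrasts of aCM and nCM with CSC share the CSC libraries. In that test 10815 genes (62.7%) passed, 5316 (30.8%) higher and 5499 (31.9%) lower in aCM. At 4-fold or more there were 2425 (14.1%), 1408 (8.17%) higher and 1017 (5.9%) lower. With total counts in place of TMM the split was 3787 higher and 7489 lower, so the share of calls that were higher was 33.6% in place of 49.2%. The nCM libraries held summed erythroid marker levels of 37826 to 58340 CPM, against 92.9 to 156 in aCM. Their fibroblast and matrix sums were 28193 to 34073 CPM against 6193 to 11340, and their sarcomere sums 4292 to 8175 against 106246 to 136689. The part of these differences in the result was not tested, and age cannot be told apart from the cell make-up of the isolates. All 30 respiratory chain identifiers, 25 of 26 fatty acid genes and 17 of 19 ion channel identifiers were higher in aCM than in nCM, and 23 of 24 mitosis genes were lower. Of 19 cardiac transcription factors 11 were higher and 1 lower in aCM than in nCM, with a median of 0.70.

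Single genes fell into different patterns. The mitochondrial creatine kinase Ckmt2 was high in the adult libraries alone among these 3 groups, at 1737, 2033 and 1785 CPM in aCM, 1.19 ± 0.562 in nCM and 0.499 ± 0.668 in CSC (SD, n = 3 each; aCM minus nCM 10.60 ± 0.70; aCM minus CSC 11.81 ± 0.74, and 13.83 without CSC replicate 1). Slc2a4 was similar, at 3.93 ± 0.521 CPM in nCM (aCM minus nCM 7.78 ± 0.22). Atp2a2 stood at 382 ± 22.6 CPM in nCM and differed from aCM by 6.16 ± 0.25. Gata4 stood at 81.8 ± 4.14 CPM in nCM and did not pass in aCM minus nCM (0.03 ± 0.16, adjusted p = 0.895). Cd36, the fatty acid translocase, stood at 1.20, 5.44 and 1.21 CPM in CSC and 1902, 1715 and 2132 in aCM (9.49 ± 0.60, and 10.62 without CSC replicate 2). The nCM libraries held 1775 ± 503 CPM of it, and aCM minus nCM did not pass (0.11 ± 0.41, adjusted p = 0.833). Spp1 did not pass in aCM minus nCM either (-0.58 ± 0.36, adjusted p = 0.176).

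Markers of other heart cell types were also higher in aCM than in CSC, and their part in the results was not tested. In whole isolates fewer cells of a type and less RNA per cell cannot be told apart. The share of all tested genes higher than in CSC, 43.2%, is the background for each list here. All 18 endothelial identifiers were higher, with a summed level of 2216 to 3231 CPM in aCM and 77.9 to 125 CPM in CSC. The endothelial cadherin Cdh5 stood at 261, 198 and 319.7 CPM against 0.407, 1.32 and 0.473 (8.41 ± 0.38, and 9.19 without CSC replicate 2). Of 16 leukocyte markers 15 were higher, with sums of 441 to 569 CPM and 14.5 to 16.8 CPM. Cd74, the invariant chain of MHC class II, stood at 246, 275 and 304 CPM against 0.407, 0.107 and 0.325 (9.97 ± 0.37). Of 11 smooth muscle and pericyte markers 10 were higher (sums 4429.9 to 4773 and 277 to 302 CPM), with the pericyte gene Rgs5 at 315, 265 and 460.1 CPM against 0.239, 0.555 and 0.118 (10.06 ± 0.36, and 10.84 without CSC replicate 2). That list includes Des, which cardiomyocytes also express. All 8 mast cell markers, Kit among them, were higher (sums 41.3 to 56.3 and 1.597 to 2.78 CPM). Kit itself made up most of each aCM sum, and which cells held it was not tested. No tested marker of these 4 lists was without a count over the CSC libraries, but 10 endothelial, 13 leukocyte, 4 smooth muscle and pericyte and 8 mast cell markers had a CSC mean under 1 CPM. Against nCM, 12 of 18 endothelial identifiers and 14 of 16 leukocyte markers were lower in aCM, beside 31.9% of all tested genes. Of 11 smooth muscle and pericyte markers 7 were higher and 0 lower than in nCM, beside 30.8% and 31.9%. Of 8 mast cell markers 3 were higher and 1 lower, so their higher share lay near that of all tested genes.

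Connective tissue genes differed in both directions. Of 18 fibroblast and matrix genes 10 were higher and 6 lower in aCM, beside 43.2% and 34.8% of all tested genes. By at least 4-fold 8 were higher and 4 lower, beside 20.6% and 9.61%. Their sums were 6193 to 11340.2 CPM in aCM and 12494 to 16024 CPM in CSC. Dcn, the proteoglycan decorin, was nearly absent from CSC (0.287, 2.22 and 0.207 CPM against 565, 517 and 1014 in aCM, 9.51 ± 0.66, and 11.42 without CSC replicate 2). The collagen chain Col1a1 was lower in aCM (368, 267 and 417 CPM against 2435, 2729 and 2136 in CSC, -2.80 ± 0.24), and so was fibronectin, Fn1 (191, 131 and 149 CPM against 5071, 5337 and 1363, -4.65 ± 0.44). These 3 CSC cultures thus held far more Col1a1 and Fn1 than aCM with little Dcn, which does not hold for clone cCSC2, described above. Erythroid markers turned on CSC replicate 2: of 8 tested 2 were higher and 1 lower, but 6 were higher without that library. The alpha globin gene Hba2 gave 0.11 ± 1.27 (adjusted p = 0.943) with it and 7.95 without it, and -0.48 without CSC replicate 1 or 3.

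**Figure D5:**
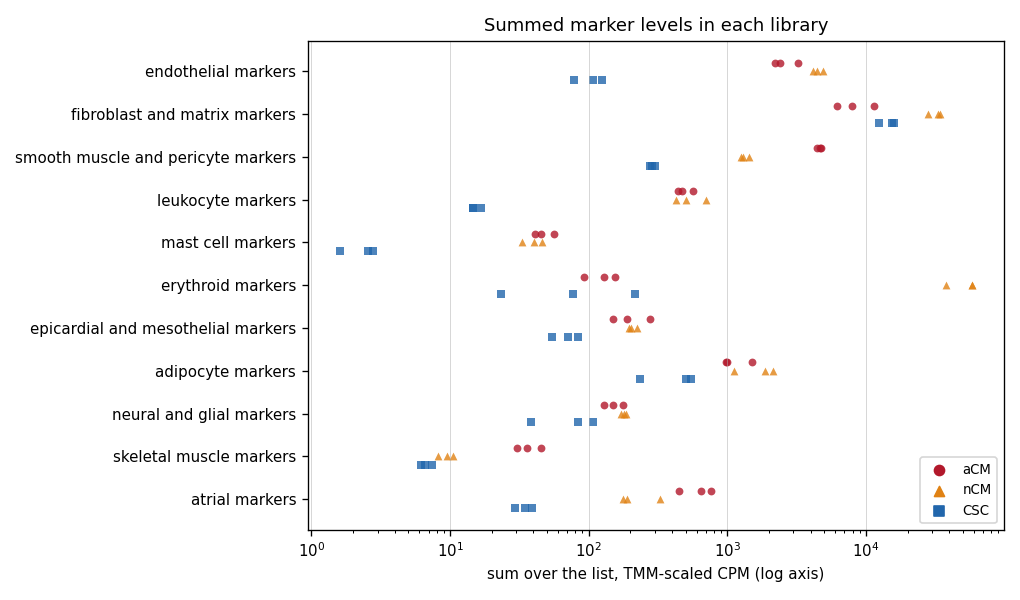
Summed TMM-scaled CPM, on a log axis, of 11 marker lists in each aCM (circles), nCM (triangles) and CSC (squares) library. Endothelial sums are 2216 to 3231 CPM in aCM and 77.9 to 125 in CSC, and erythroid sums in CSC run from 23.4 to 215.

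Immediate early and heat shock genes were more often higher than lower in aCM, unlike the amino acid stress genes above. Of 21 immediate early and heat shock identifiers 16 were higher in aCM than in CSC, while against nCM 1 was higher and 13 were lower. The shares of all tested genes were 43.2% higher against CSC, and 30.8% higher and 31.9% lower against nCM. Fos stood at 802, 828 and 1251 CPM against 1.36, 7.15 and 1.30 (8.17 ± 0.62, and 9.48 without CSC replicate 2) and Atf3 at 248, 278 and 391 CPM against 1.72, 2.65 and 0.503 (7.51 ± 0.43). Both are known as genes that cells induce quickly on stress. Fosl1, a relative of Fos linked to growth and migration, was lower in aCM (5.59, 3.49 and 6.20 CPM against 108, 127 and 166, -4.72 ± 0.28). So were the abundant chaperones Hsp90aa1 (406, 351 and 417 CPM against 624, 827 and 948, -1.03 ± 0.16) and Hspa8 (623, 714 and 685 CPM against 1136, 959 and 1372, -0.78 ± 0.16). Small heat shock proteins were higher in 6 of 6, with Cryab, the alpha B crystallin, at 1887, 1991 and 1980.1 CPM against 2.73, 5.85 and 4.44 (8.81 ± 0.35).

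In Wnt signalling 11 of 21 genes were higher and 5 lower, against 43.2% and 34.8% of all tested genes, a higher share near the background. By at least 4-fold 9 were higher and 2 lower, against 20.6% and 9.61%, so at that size the higher share lay above the background. The nuclear effector Lef1 stood at 0.155, 0.403 and 0.222 CPM in aCM and 23.0, 42.3 and 27.7 in CSC (-6.84 ± 0.34). The secreted protein Dkk3 was the reverse, at 247, 159 and 175 CPM against 0.813, 1.02 and 0.917 (7.71 ± 0.21). Beta-catenin, Ctnnb1, did not pass (-0.10 ± 0.16, adjusted p = 0.556). In the TGF-beta and BMP list 12 of 23 were higher and 6 lower, which is also near the background. By at least 4-fold 5 of these genes were higher and 3 lower. The ligands divided: Bmp2 was lower in aCM (2.43, 2.28 and 2.16 CPM against 16.4, 23.8 and 15.9, -3.03 ± 0.23) and Bmp4 higher (15.0, 11.8 and 16.1 CPM against 0.0479, 0.235 and 0.0887, 6.75 ± 0.30, and 7.67 without CSC replicate 2).

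Pluripotency genes did not share a direction. Of 9 tested 6 were higher in aCM (3 by at least 4-fold), 1 was lower and 2 did not pass, and 6 had a CSC mean under 1 CPM. Of all tested genes 43.2% were higher and 34.8% lower. Myc, the growth regulator, was the lower one, at 20.3, 28.2 and 37.1 CPM in aCM and 81.0, 105 and 92.0 in CSC (-1.70 ± 0.18). Klf4 did not pass (0.15 ± 0.17, adjusted p = 0.417), and both groups held it, at 169, 179 and 249.6 CPM in aCM and 199, 188 and 150.3 in CSC. Esrrb, a nuclear receptor that is also a metabolic regulator of heart, was higher in aCM (12.6, 13.3 and 11.3 CPM against 0.144, 0.0213 and 0.0887, 7.19 ± 0.36, and 7.86 without CSC replicate 1).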

How the data were processed

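RNA was sequenced after depletion of ribosomal RNA, from random-primed TruSeq libraries of total RNA, per the labels' protocols. The authors deposited 1 table with estimated counts per gene for CSC, iCM (beating colonies grown from CSC), nCM and aCM, and log2 values that they had centred on each gene, which were not used here. They deposited a second table with estimated counts for cCSC3 and for cCSC4, which by its label is the library of CSC replicate 1. For cCSC1 and cCSC2 that table holds signal values on the scale of counts whose making is not stated. The sources used here do not name the aligner, counter, genome build or strand setting. Gene symbols are those of the deposited table, in which 5794 of 26276 genes have none, and 1 line without a gene name held 0 counts.

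Estimated counts were rounded to whole numbers. The filter filterByExpr, set to a minimum count of 10, removed 9034 genes and left 17242. All 12 libraries of the 4 groups entered 1 TMM-scaled quasi-likelihood fit in edgeR 4.0.16 (R 4.3.3), with Benjamini-Hochberg adjustment over all tested genes at 0.05, and aCM minus nCM was a contrast of that fit. Standard errors are the fold change divided by the square root of F. DESeq2 1.42.0 was an alternative. Tables were joined in Python 3.11.15 with pandas 2.3.3 and numpy 2.4.6. Plots were drawn with matplotlib 3.10.9. On simulated data of 17242 genes, aCM minus CSC recovered 73.5% of 98 genes changed by 1 on the log2 scale and 99.0% of 102 changed by 2. Of 184 calls 11 were false. The changed genes had random directions and came from genes above 1 CPM, and all others were equal between groups. The simulation thus did not test scaling or false calls under a difference as wide as the observed one. No 2 libraries of CSC or aCM agreed within sampling noise (the lowest median chi-square of a pair was 2.12, against 0.455 by chance). Pair ratios used a pseudocount of 0.5. The clone values are CPM of the column total.

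The gene lists, pairs and naming rule were chosen with earlier results of these data known. Named genes were the 12 largest in each direction among called genes whose libraries did not overlap and whose mean was at least 50 CPM in the higher group. From each list, the rule took 3 called genes of the more frequent direction with at least 5 CPM in the higher group, up to 3 of the other direction and the most abundant gene that did not pass. It added a short set of marker genes and the genes of the pairs. Some genes that the rule names are not reported here. The alternatives were other scalings, other filters on low counts, DESeq2, a fit of only 2 groups, the replicate number as a block, libraries thinned to the smallest total, and leaving out each library.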

Additional observations from a re-analysis of the deposited data

How the results depend on the processing

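The counts of called genes stayed within 1.5 times of those reported under each alternative run. For aCM minus CSC they ran from 12737 to 13409 on leaving out 1 library, against 13445, and were 13312 with DESeq2's size factors in edgeR, 13189 with total counts, 13117 with DESeq2, 13676 with no filter, 11732 with the stricter filter and 12351 with only the 2 groups. For aCM minus nCM they ran from 9870 to 10708 on leaving out 1 library, against 10815. The replicate numbers did not pair the libraries: the same-numbered libraries' deviations correlated at 0.03, -0.05 and 0.02 between aCM and CSC and at -0.13, -0.06 and -0.20 between aCM and nCM. With the replicate block 12124 genes were called in aCM minus CSC (6237 higher and 5887 lower) and 9702 in aCM minus nCM. Of the values of named genes under the alternatives, 3167 kept direction and call, 39 passed where the reported value did not, 20 no longer passed and 38, all of genes that did not pass, changed sign. Calls were lost for Tfam, Clock, Nr2f2, Becn1 and, without CSC replicate 2, Thy1 (-1.64). Of the counts of genes per list 1237 stayed within 1.5 times and 23, each of 6 genes or fewer, did not. All 315 values of the pairs kept their sign. In CSC the depth limits genes under 0.0887 CPM and in aCM those under 0.166 CPM.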

Other observations

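Clock genes differed in opposite senses. Of 15 tested, 11 were higher and 3 lower in aCM than in CSC (edgeR), beside 43.2% and 34.8% of all tested genes. Dbp, an output gene of the clock, stood at 160.3, 157 and 163 CPM in aCM and 8.83, 9.92 and 6.42 in CSC (4.25 ± 0.17 on the log2 scale), and Nr1d1, the repressor REV-ERB alpha, at 74.3, 63.2 and 84.7 CPM against 7.32, 7.45 and 6.15 (3.41 ± 0.18). Arntl, the activator BMAL1 whose gene Nr1d1 represses, was the reverse, at 5.13, 3.76 and 6.32 CPM against 62.7, 61.2 and 51.0 (-3.53 ± 0.18). The same 3 genes differed between aCM and nCM, by 4.44 ± 0.17, 3.73 ± 0.18 and -2.40 ± 0.17. The labels give no hour of collection, so time of day and cell type cannot be told apart. The call of Clock (-0.29 ± 0.12, adjusted p = 0.0369) was lost without aCM replicate 1 (-0.27), aCM replicate 2 (-0.22), CSC replicate 2 (-0.23) or CSC replicate 3 (-0.28).

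Muscle ubiquitin ligases and imprinted growth genes differed too. Of 16 ligase and autophagy genes 12 were higher in aCM, led by Asb2, a subunit that targets filamins (406, 469.5 and 325 CPM against 0.191, 0.256 and 0.266, 10.70 ± 0.27), and Trim63, the muscle ligase MuRF1 (119, 144 and 102 CPM against 0.359, 0.235 and 0, 9.15 ± 0.42, and 9.78 without CSC replicate 1). The autophagy gene Becn1 was slightly lower (-0.35 ± 0.11, adjusted p = 0.0113), a call lost without aCM replicate 1 (-0.29). Imprinted Peg3 was higher in aCM (97.5, 91.5 and 93.1 CPM against 1.46, 2.37 and 1.24, 5.78 ± 0.22) and the growth factor adaptor Grb10 lower (105, 123 and 148 CPM against 592, 629.8 and 687, -2.34 ± 0.14). All 9 imprinted growth genes tested were lower in aCM than in nCM, while against CSC 6 were higher. Igf2 turned on CSC replicate 2, with 3.44 ± 0.83 over all libraries and 6.38 without it.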
